A study of Mus musculus with 65 samples.

Results

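The question addressed here was whether the cortical response of young mice differed from that of midlife mice that ran little. The measure was a difference of effects: the log2 fold change of young runners over young sedentary mice, minus the log2 fold change of midlife low runners over midlife sedentary mice. It was taken from 26 of the 65 poly(A) RNA-seq libraries of the series, all from cortex, namely 5 young runners, 5 young sedentary mice, 6 midlife low runners and 10 midlife sedentary mice. A positive value means that the run-minus-sedentary change was more positive in young mice, and a negative value that it was more negative. The libraries of the 2 ages were sequenced apart, so that levels were not compared between ages, and any shift common to all libraries of 1 age cancels in this measure.

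All mice were male C57BL/6J, an inbred strain. Young runners had saucer wheels in the home cage for 12 weeks, from 1 to 2 months until 4 to 5 months of age, and young sedentary mice of the same age had none. Midlife runners had wheels from 12 months until 15 months of age, also for 12 weeks, and midlife sedentary mice of that age had none. The midlife low runners were the part of the midlife running cohort that ran least, and were therefore defined by what the mice did and not by assignment. Young runners were not divided in this way, so age and amount run cannot be told apart in this contrast. The paper's methods list tracked running for another young cohort than the one sequenced. Low runners 3545 and 5581 shared a cage, and the others were each caged with a high runner. The hour of the day at which brains were taken is not given in the sources used here.

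Wheel running is a voluntary exercise that mice perform mostly in the dark phase, and in young adult rodents it is known for raising blood flow, vessel growth and neurotrophin levels in the brain. The circadian clock is a feedback loop in which the activators Clock and Arntl drive the Per and Cry repressors through E-box elements, and its output factors follow the hour and the behaviour of the animal. Chaperones fold proteins in the cytosol and in the endoplasmic reticulum, and those of the endoplasmic reticulum are induced together through promoter elements named ERSE when unfolded protein accumulates there. Collagens and laminins are made in cortex mainly by cells of the vessels and of the meninges, the membranes that cover the brain.

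The libraries held between 22076748 and 47808356 counts. Of 38924 genes in the tables, 15231 passed the filter on low counts and were tested. All 18 listed markers of cortical excitatory neurons were among them, and Slc17a7, the vesicular glutamate transporter of these neurons, averaged between 1056 and 1454 CPM (counts scaled to a common library size, as edgeR gives them) in the 4 groups. Of 20 choroid plexus markers, 9 passed the filter. The choroid plexus score, the mean log2(CPM + 0.5) of those markers, was 2.99 and 1.77 in midlife sedentary mice 6859 and 5915 and at most 1.14 in the other 24 libraries. The meninges score ranged from 2.16 to 2.92 in young runners, from 1.18 to 2.74 in young sedentary mice, from 0.98 to 2.29 in low runners and from 0.90 to 2.99 in midlife sedentary mice. The biological coefficient of variation, the relative spread of a gene between mice of a group, was 0.102 when the young libraries were fitted alone and 0.161 when the midlife libraries were. In bulk tissue, fewer cells of a type and less RNA per cell cannot be told apart.

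One gene passed a false discovery rate (FDR) of 0.05 for the difference of effects, Prdm16, which is 0.00657% of the genes tested. Prdm16 encodes a zinc finger transcription factor with a role in neural stem cells, endothelium and brown fat. It rose in young runners and not detectably in low runners. The 5 young runners had 15.7, 15.8, 18.6, 15.4 and 19.1 CPM, and the 5 young sedentary mice had 10.7, 10.9, 9.42, 9.93 and 8.73 CPM. Every young runner thus lay above every young sedentary mouse, as 9.28% of all tested genes did in either direction. The 6 low runners ranged from 8.61 to 12.8 CPM with a median of 12.2 CPM, and the 10 midlife sedentary mice ranged from 10.4 to 13.3 CPM with a median of 12.1 CPM, so that these groups overlapped. Expression of Prdm16 was 0.77 ± 0.098 (SE) higher in young runners on the log2 scale, a fold of 1.71, against -0.04 ± 0.079 (SE) in low runners. The difference of effects was 0.81 on the log2 scale, with a 95% interval of 0.55 to 1.07 and an FDR of 0.0116. An exact two-sided permutation test of the run labels within each age, on log2(CPM + 0.5), gave p = 0.00251 over all 2018016 arrangements. Prdm16 had been picked by this contrast among all genes, the p is not adjusted for that, and the arrangements stand for no effect of running at either age, so that the value is a description. Prdm16 lies on the minus strand at chr4:154316125-154636873 (GRCm38), and an exon of it overlaps an exon of B230104I21Rik on the other strand. The libraries carried no strand information, and reads from this overlap cannot be told apart.

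The call rested on few mice at the threshold. Without young runner 18528 or young sedentary mouse 18681 the FDR of Prdm16 was 0.0501 and 0.052, and without any of the other 24 mice it stayed under 0.05. The difference was 0.97 with the midlife libraries of lane 1 alone and 0.73 with those of lane 5 alone, at an FDR of 0.136 and 0.0746. Lane 1 held 2 low runners and 4 midlife sedentary mice, and lane 5 held 4 and 6. In the young libraries, lane 8 held only runners (18289 and 18528). Lanes 4 and 6 held only young sedentary mice (18627 and 18681, and 18605). Lane and running are thus partly confounded in the young, and the part of lane there was not tested.

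**Figure D1:**
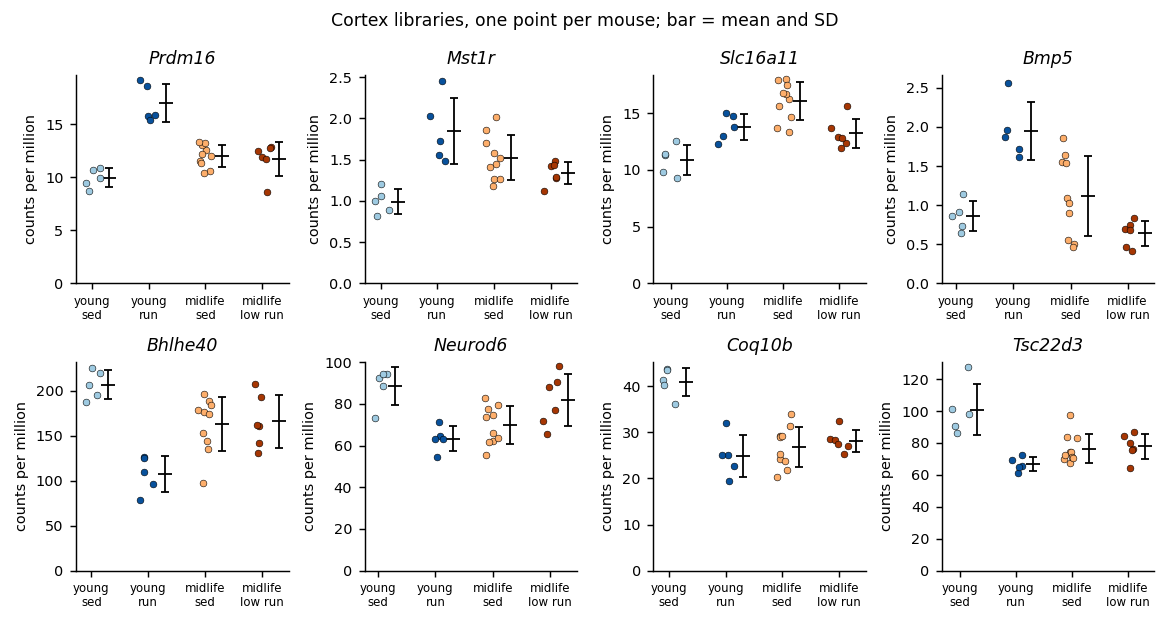
CPM (vertical axes, from 0) of 8 genes in each of the 26 cortex libraries, 1 point per mouse, with the mean and SD of each group beside the points. Young runners lie apart from young sedentary mice in Prdm16, at 15.4 to 19.1 against 8.73 to 10.9 CPM, while midlife low runners overlap midlife sedentary mice in all 8 genes.

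Beyond Prdm16, 2235 genes or 14.7% had an unadjusted p under 0.05, with 1121 higher and 1114 lower in the young effect. The median difference over all tested genes was -0.0015 on the log2 scale, with 5% of genes below -0.32 and 5% above 0.56. In the same fit, 94 genes (0.617%) passed the FDR threshold for young running alone. For low running alone edgeR called 0 genes. The smallest FDR was 0.133, and 849 genes (5.57%) had an unadjusted p under 0.05. A further 14 genes had an FDR under 0.06 for the difference of effects, and counts of calls differed between fits. With limma voom and a weight for each group, 58 genes passed, with DESeq2 205, and with each age fitted alone 480. DESeq2 and the fit of each age alone took p from a normal distribution, which makes no allowance for few mice, unlike the F-test of edgeR. How much this added to their counts was not tested. All 20 genes described next passed in each of these 3 fits, which use the same libraries by which the genes were ranked.

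The 19 genes with the smallest p after Prdm16 did not pass the FDR threshold with edgeR and are described with their values. Because they were ranked by this contrast, their differences are a description. Their counts of signs, sizes and overlaps also follow in part from that ranking, and the shares of all genes beside them are unselected. Of the 20 genes, 9 were more positive and 11 more negative in young running, 18 had effects of opposite sign at the 2 ages against 59.2% of all tested genes, and in all 20 the young effect was the larger in size. Young groups did not overlap for 16 of the 20, against 9.28% of all genes, whereas low runners and midlife sedentary mice overlapped for all 20, and were apart for 0.0263% of all genes.

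Bhlhe40, a repressor of the circadian clock that is also driven by activity and hypoxia, differed most among the genes with a lower young effect. Young runners had 126, 110, 78.5, 125 and 96.7 CPM and young sedentary mice 196, 206, 225, 187 and 220 CPM. Low runners ranged from 131 to 207 CPM with a median of 161 CPM, and midlife sedentary mice from 97.2 to 196 CPM with a median of 175 CPM. All young runners were below all young sedentary mice, and the midlife groups overlapped. The effects were -0.95 ± 0.15 (SE) in young and 0.03 ± 0.12 (SE) in low runners on the log2 scale, with a difference of -0.98 (95% interval -1.38 to -0.57, FDR = 0.0587). Tsc22d3, the glucocorticoid-induced leucine zipper, had 69.5, 65.8, 61, 72.5 and 64.8 CPM in young runners and 90.6, 128, 101, 86.3 and 98 CPM in young sedentary mice. Its values in low runners, 64.4 to 86.6 CPM with a median of 77.9 CPM, lay within those of midlife sedentary mice, 67.6 to 97.6 CPM with a median of 73.3 CPM, except at the low end. Its difference of effects was -0.62 (FDR = 0.0587).

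Neurod6, a bHLH transcription factor of excitatory cortical neurons, had 64.7, 54.7, 63, 71.2 and 63.1 CPM in young runners against 73.1, 92.4, 94.3, 88.4 and 94.6 CPM in young sedentary mice. In midlife its values leaned the other way, with a median of 82.8 CPM (65.4 to 98.1) in low runners and 70 CPM (55.6 to 82.8) in midlife sedentary mice. The effects were -0.48 and 0.23 on the log2 scale and the difference was -0.72 (FDR = 0.0587). Kcnip4, a subunit that modulates A-type potassium channels, had a difference of -0.47, Camk1g, a calmodulin-dependent kinase, -0.74, and Atp1b1, a beta subunit of the sodium pump, -0.27. Prrt2, a presynaptic protein, and Asic1, an acid-sensing channel, had smaller differences of -0.33 and -0.29, each made of a lower value in young runners and a higher one in low runners (0.13 and 0.14 on the log2 scale). The remaining lower genes were Fam174b (-0.48), Gtpbp4, a ribosome assembly GTPase (-0.36), and Coq10b, a coenzyme Q binding protein of the mitochondrion (-0.80). Coq10b had 22.8, 25.1, 19.4, 32 and 25 CPM in young runners and 41.3, 43.8, 40.4, 36.1 and 43.5 CPM in young sedentary mice, which did not overlap. Prrt2 and Fam174b share exons with other annotated genes (Gm42742 on the same strand and A830073O21Rik on the other), as do Coq10b, Kcnip4, Atp1b1, Gtpbp4, Bhlhe40 and Bmp5 on the other strand, and their counts are uncertain to that extent.

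Among genes with a higher young effect, Bmp5, a ligand of the bone morphogenetic protein family, had the largest difference of the 20, 1.98 ± 0.41 (SE) on the log2 scale. Young runners had 2.56, 1.62, 1.87, 1.72 and 1.96 CPM and young sedentary mice 0.733, 1.14, 0.908, 0.854 and 0.646 CPM. Low runners ranged from 0.419 to 0.838 CPM with a median of 0.687 CPM, within the wide range of midlife sedentary mice, 0.463 to 1.85 CPM with a median of 1.06 CPM, except at the low end. The 2 effects were thus 1.18 and -0.81. With the meninges score as a covariate the difference of Bmp5 was 1.40. Mst1r, a receptor tyrosine kinase, had a difference of 1.08, Tnfsf10, a death ligand of the TNF family, 1.01, and Whrn, a scaffold protein, 0.79. Whrn had 46.8, 54, 48.6, 41.1 and 47.6 CPM in young runners and 27.1, 30.8, 31.7, 24.4 and 23.3 CPM in young sedentary mice, while its low-runner effect was 0.00 ± 0.10 (SE). Slc16a11, a transporter of the monocarboxylate family, had effects of 0.34 and -0.28 and a difference of 0.62. Mzf1, a zinc finger factor, had a difference of 0.70, Fam53a 0.39, and Gm42688, which overlaps Ccdc142 and Mrpl53 on its own strand, 0.81.

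**Figure D2:**
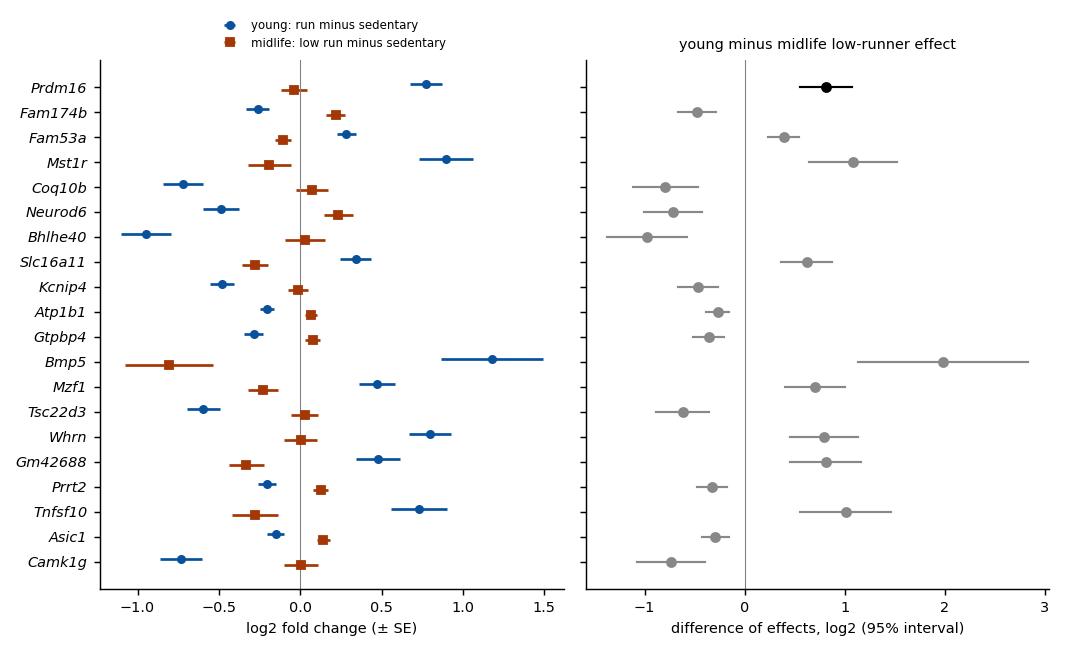
Left, log2 fold change with SE of young runners over young sedentary mice (circles) and of midlife low runners over midlife sedentary mice (squares) for the 20 genes with the smallest p. Right, their difference with its 95% interval, in black for Prdm16, the 1 gene past an FDR of 0.05; the intervals of all 20 lie to 1 side of 0, as their ranking by p requires.

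Most chaperone genes had a negative difference of effects. Of 16 heat shock and chaperone genes tested, all 16 had a negative difference of effects and 10 had an unadjusted p under 0.05, against 7.31% of all genes in that direction. The list median was -0.29 on the log2 scale, beside -0.0015 over all genes, and none passed the FDR threshold. It was made up of a median of -0.10 in young mice and 0.18 in low runners. In low runners all 16 genes were on the positive side and 8 had an unadjusted p under 0.05, against 2.92% of all genes, and 3 were lower at that p in young runners, against 8.59%. A second list of 24 genes of endoplasmic reticulum folding and its stress response, drawn up after these values were seen and sharing 3 members, had 23 negative differences and 13 at an unadjusted p under 0.05. Its members are therefore no independent evidence of direction. Over both lists, and with that limit, 36 of 37 genes were negative. An unadjusted p under 0.05 was found for 20 of them, all lower, against 7.31% of all genes.

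Hspa5, or BiP, the main Hsp70 chaperone of the endoplasmic reticulum, had 217, 160, 163, 180 and 176 CPM in young runners and 188, 188, 216, 206 and 239 CPM in young sedentary mice. Low runners ranged from 223 to 355 CPM with a median of 266 CPM, and midlife sedentary mice from 152 to 232 CPM with a median of 208 CPM. Low runners were thus high and touched the sedentary range only at its top, while the young groups overlapped with the runners on the low side. The effects were -0.21 ± 0.12 (SE) and 0.48 ± 0.098 (SE), with a difference of -0.69 (unadjusted p = 0.00018, FDR = 0.105). Pdia4, a disulfide isomerase of the same compartment, had effects of -0.20 and 0.44 and a difference of -0.64. Sdf2l1, a partner of Hspa5, was at 6.86 to 17.9 CPM with a median of 10.4 CPM in low runners and at 4.72 to 9.97 CPM with a median of 6.6 CPM in midlife sedentary mice, and its difference was the largest of either list at -0.92. Creld2 and Manf, secreted proteins of the stress response, had differences of -0.62 and -0.55, Herpud1, a part of the degradation machinery, -0.53, and the isomerases Pdia3 and Pdia6 -0.38 and -0.43. Xbp1, a transcription factor of the response, had a difference of -0.50. Edem1, Sel1l, Derl1, Derl2, Syvn1 and Atf6 had differences between -0.11 and 0.06, with unadjusted p of 0.159 or more.

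Cytosolic chaperones shared the sign. Dnajb1 and Dnaja1, co-chaperones of Hsp70, had differences of -0.43 and -0.29, Hspa8, the constitutive Hsp70, -0.26, Hsph1 -0.22 and Chordc1 -0.29. Hspb1, a small heat shock protein, had 5.95 to 9.39 CPM in low runners (median 6.84 CPM) and 3.01 to 5.96 CPM in midlife sedentary mice (median 4.79 CPM), which met at the ends of their ranges, and its difference was -0.56. The stress-inducible Hspa1a and Hspa1b had differences of -0.38 and -0.22 with SEs of 0.29 and 0.40, and are near-identical copies between which reads may be split. The heat shock score, the mean log2(CPM + 0.5) of the list, ranged from 6.45 to 6.85 in low runners and from 6.08 to 6.5 in midlife sedentary mice, and was highest in low runners 0533 and 1990. Without any 1 mouse, between 8 and 11 of the 16 genes had an unadjusted p under 0.05, and with the midlife libraries of lane 1 alone 6 did and of lane 5 alone 12. Of all genes, 5.01% to 10.2% had such a p on the lower side without 1 mouse, 4.95% with lane 1 alone and 6.13% with lane 5 alone.

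The upstream sequence of Prdm16 is shown because it was the 1 gene past the FDR threshold, and those of 3 endoplasmic reticulum genes because ERSE elements, known sites of this stress response, can be read in them. Of these 3, Hspa5 and Herpud1 are described above, and Hsp90b1, an Hsp90 chaperone of the endoplasmic reticulum, had a difference of -0.20 (unadjusted p = 0.00772). The ERSE was searched as CCAAT, 9 bases of any kind and CCACG, and the ERSE-II as ATTGG, 1 base of any kind and CCACG, on both strands, in the 250 bases before each start in RefSeq's promoter windows (GRCm38.p6). Each sequence is given 5′ to 3′ on the strand of its gene, ending at the base before the start, with the matched element in capitals.
Hspa5: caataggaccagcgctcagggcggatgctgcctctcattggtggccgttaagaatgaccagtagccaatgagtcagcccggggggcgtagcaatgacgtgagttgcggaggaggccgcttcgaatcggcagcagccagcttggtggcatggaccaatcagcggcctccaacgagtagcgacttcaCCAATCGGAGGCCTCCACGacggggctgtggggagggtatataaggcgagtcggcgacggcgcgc
Hsp90b1: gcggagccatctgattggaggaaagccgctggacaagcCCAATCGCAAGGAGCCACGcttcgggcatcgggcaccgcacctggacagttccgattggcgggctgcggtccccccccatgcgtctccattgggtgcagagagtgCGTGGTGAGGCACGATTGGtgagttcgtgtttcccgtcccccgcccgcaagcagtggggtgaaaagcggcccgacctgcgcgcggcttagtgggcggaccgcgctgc
Herpud1: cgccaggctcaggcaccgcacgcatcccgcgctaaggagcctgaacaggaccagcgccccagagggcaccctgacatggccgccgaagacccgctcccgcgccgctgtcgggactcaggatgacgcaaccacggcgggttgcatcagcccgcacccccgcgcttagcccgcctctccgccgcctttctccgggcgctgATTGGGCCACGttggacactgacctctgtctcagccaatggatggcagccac
Prdm16: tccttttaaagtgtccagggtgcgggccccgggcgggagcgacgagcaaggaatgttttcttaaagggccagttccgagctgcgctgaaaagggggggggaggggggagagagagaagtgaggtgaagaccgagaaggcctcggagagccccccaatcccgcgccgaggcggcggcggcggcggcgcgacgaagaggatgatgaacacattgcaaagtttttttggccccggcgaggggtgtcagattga
The windows lie at chr2:34771840-34772089 (plus strand), chr10:86705445-86705694 (minus), chr8:94386179-94386428 (plus) and chr4:154636874-154637123 (minus). Hspa5 held 1 ERSE, 65 to 47 bases upstream, Hsp90b1 held 2, the nearer of them on its other strand, and Herpud1 held 1 ERSE-II, 52 to 42 bases upstream. Neither element was found in the Prdm16 window, which is therefore in lower case throughout.

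Of 20 genes of the endoplasmic reticulum list with an entry, 8 held an ERSE (40%), namely Calr, Canx, Creld2, Dnajc3, Hsp90b1, Hspa5, Pdia6 and Syvn1, against 0.13% of the 27025 genes in the promoter table. Herpud1 was the 1 member with an ERSE-II, which 0.037% of all genes held. Such matches describe the sequence and not the use of a site. Over all tested genes with an ERSE or ERSE-II, whether listed or not, 18 of 23 had a negative difference of effects with a median of -0.11. An unadjusted p under 0.05 was found for 6 on the lower side and 1 on the higher. Of the 14 among them that were outside the list, 9 were negative, with a median of -0.06. By edgeR 0 had an unadjusted p under 0.05 on the lower side, and 1 did on the higher. Among all tested genes with an entry, 51.5% were negative, 7.71% had such a p on the lower side and 6.98% on the higher.

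Clock genes were mixed, with more on the lower side. Of 19 tested, 13 had a negative difference of effects, and 7 had an unadjusted p under 0.05 on the lower side, against 7.31% of all genes, and 1 on the higher side, against 7.36%, with a list median of -0.24. None passed the FDR threshold. The lower genes were mostly repressors of the loop: Bhlhe40 (-0.98), Per2 (-0.95), Ciart (-0.56), Per1 (-0.54), Bhlhe41 (-0.43) and Cry2 (-0.24), with the output factor Dbp (-0.40). The 1 higher gene was Rorb (0.76), a nuclear receptor that is also a marker of layer 4 neurons.

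The ages shared the sign of the effect for 13 of the 19 clock genes, so that the difference was often one of size. In low runners 4 of the 19 were lower at an unadjusted p under 0.05, against 2.65% of all genes, and in young runners 12 were, against 8.59%. On the higher side 2 were in low runners, against 2.92%, and 3 in young runners, against 8.36%. Ciart, a repressor that binds the activators, had 13.1, 11.7, 9.09, 11 and 12.1 CPM in young runners and 26.9, 35.4, 20.5, 21.4 and 23.4 CPM in young sedentary mice. Low runners ranged from 11.8 to 23.6 CPM with a median of 15.3 CPM and midlife sedentary mice from 13.9 to 31.5 CPM with a median of 25.6 CPM. Runners were lower at both ages, without overlap in the young and with overlap in midlife, by -1.16 and -0.60 on the log2 scale. Dbp, a D-box activator, had effects of -0.98 and -0.58, and Nr1d1, or Rev-erb alpha, -0.54 and -0.32. Arntl, the partner of Clock, was on the positive side at both ages, by 0.48 and 0.27, as was Nfil3, a D-box repressor, by 0.25 and 0.50.

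Per2, Per1 and Bhlhe40 had their effect mainly in the young. Per2 had 50.2, 36.3, 23.7, 45.1 and 26.3 CPM in young runners and 69.7, 63, 100, 81.5 and 86.6 CPM in young sedentary mice, which did not overlap. Its values in midlife sedentary mice spread from 16.4 to 81.1 CPM around a median of 58.9 CPM and enclosed those of low runners, 31.1 to 63.5 CPM with a median of 49.8 CPM. The effects of Per2 were -1.14 and -0.19. Per3 did not follow, with effects of -0.22 and -0.23 and a difference of 0.01 ± 0.22 (SE). Without young runner 18526 the number of clock genes at an unadjusted p under 0.05 on the lower side was 4 in place of 7, and it was also 4 with the midlife libraries of lane 1 alone and 8 with those of lane 5 alone. The shares of all genes on that side were 5.01%, 4.95% and 6.13% in these fits, in that order.

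The windows of Ciart and Coq10b are shown because the E-box, searched as CACGTG, is the site of the Clock and Arntl activators. Ciart, on the minus strand at chr3:95882229-95882478, held 3 E-boxes, and Coq10b, on the plus strand at chr1:55052520-55052769, was the 1 gene that held any among the 17 of the 20 with an entry. That share, 5.88%, is no higher than the 6.86% of all genes in the table. The E-boxes are in capitals.
Ciart: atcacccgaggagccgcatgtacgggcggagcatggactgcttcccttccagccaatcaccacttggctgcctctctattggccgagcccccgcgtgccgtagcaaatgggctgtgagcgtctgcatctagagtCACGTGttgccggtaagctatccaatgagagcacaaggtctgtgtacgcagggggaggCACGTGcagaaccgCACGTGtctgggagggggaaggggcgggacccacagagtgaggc
Coq10b: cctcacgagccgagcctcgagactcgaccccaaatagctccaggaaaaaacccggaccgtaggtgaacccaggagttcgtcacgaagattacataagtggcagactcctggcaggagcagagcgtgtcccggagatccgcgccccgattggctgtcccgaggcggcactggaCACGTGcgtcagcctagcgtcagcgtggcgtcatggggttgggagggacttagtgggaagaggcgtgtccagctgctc
The Coq10b window also held a D-box, searched as TTATGTAA, on its other strand, the site of Dbp and related factors, found in 0.977% of all genes. E-boxes were present in 5 of 17 clock genes with an entry (29.4%) and in 6.86% of all genes in the table. Over 1110 tested genes with an E-box, the median difference of effects was -0.03, with 8.92% at an unadjusted p under 0.05 on the lower side, against 7.71% of all tested genes with an entry.

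Glucocorticoid-responsive genes leaned the same way. Of 16 tested, 15 had a negative difference and 6 had an unadjusted p under 0.05, against 7.31%, with a median of -0.26. They were Tsc22d3 (-0.62), the kinase Sgk1 (-0.67), Per1 (-0.54), the sulfotransferase Sult1a1 (-0.39), Errfi1, an inhibitor of the EGF receptor (-0.25), and Fkbp5, a co-chaperone of the glucocorticoid receptor (-0.25). The receptor itself, Nr3c1, had a difference of -0.03. In low runners the list median was 0.03, and in young runners -0.25. Only Tsc22d3 passed the FDR threshold in young runners alone, at 0.00423. Without young runner 18526 the 6 genes became 1, as with the midlife libraries of lane 1 alone, and with those of lane 5 alone 3. Of all genes, 5.01%, 4.95% and 6.13% had such a p on the lower side in these fits, in that order. The 1 of 16 was thus near the share of all genes. Per1 counts in this list and in that of the clock.

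Matrix genes lay on the other side. All 17 interstitial collagen genes tested had a positive difference of effects, 9 of them at an unadjusted p under 0.05, against 7.36% of all genes, with a median of 0.60. The median was 0.58 in young mice, where 11 genes had an unadjusted p under 0.05 on the higher side against 8.36% of all genes, and -0.04 in low runners, where 0 did by edgeR. Col26a1 and Col23a1, minor collagens, had the smallest p, with differences of 1.08 and 1.06 and an FDR of 0.108 each. Col26a1 had 6.52, 9.19, 10.1, 6.98 and 10.1 CPM in young runners and 4.96, 5.44, 4.63, 4.16 and 3.68 CPM in young sedentary mice, which did not overlap. Low runners, at 3.18 to 6.17 CPM with a median of 5.04 CPM, lay within midlife sedentary mice, at 3.12 to 7.54 CPM with a median of 5.52 CPM. The fibrillar Col5a1 and Col5a2 had differences of 0.81 and 0.94, Col1a1 1.01, Col27a1 0.57, Col24a1 0.52, and the microfibrillar Col6a3 and Col6a2 0.77 and 0.30. Col5a1 had effects of 0.62 and -0.20. The mean level of these 17 genes, as log2(CPM + 0.5), lay between 3.40 and 3.58 in young runners, above 2.93 to 3.06 in young sedentary mice, and between 2.85 and 3.28 in low runners against 2.88 to 3.48 in midlife sedentary mice.

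Of 21 basement membrane genes, 8 had an unadjusted p under 0.05 on the higher side, against 7.36% of all genes, and 0 on the lower, against 7.31%, with a median of 0.295. Hspg2, or perlecan, a proteoglycan of vessel walls, had a difference of 0.90, the laminin chains Lama4, Lamc3, Lama5, Lama2 and Lamb2 had 0.75, 0.61, 0.48, 0.45 and 0.34, the linker Nid1 had 0.54 and Col4a6 1.26. Lama4 had 14.8, 16, 16.7, 15 and 17.1 CPM in young runners and 11.2, 11.7, 9.93, 11.7 and 8.9 CPM in young sedentary mice. Its low-runner values, 6.45 to 14 CPM with a median of 7.72 CPM, overlapped with 7.79 to 12.5 CPM and a median of 9.82 CPM in midlife sedentary mice. The major chains of vessel basement membranes, Col4a1 and Col4a2, had effects on the positive side at both ages (0.28 and 0.10, 0.39 and 0.18) and differences of 0.18 ± 0.13 and 0.21 ± 0.13 (SE).

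Markers of the meninges had values on the same side as these matrix genes, and their part in the result was not tested beyond the fits given here. Of 12 markers, 11 had a positive difference and 2 (Slc47a1 and Igf2) an unadjusted p under 0.05 on the higher side, against 7.36% of all genes. The median was 1.08, from a median of 0.75 in young mice and -0.39 in low runners. The difference of effects in the meninges score was 0.94. With that score as a covariate, 8 interstitial collagens and 2 basement membrane genes had an unadjusted p under 0.05, and the medians were 0.37 and 0.07. Of all genes, 3.96% had such a p on the higher side in that fit. A transcript length score, the mean log2(CPM + 0.5) of genes in the top decile of exon length minus that of genes in the bottom decile, averaged 2.91 in young runners, 2.78 in young sedentary mice, 2.48 in low runners and 2.56 in midlife sedentary mice, with overlapping groups at both ages. With it as a covariate, 8 and 5 genes had such a p, beside 8.78% of all genes on the higher side, and the medians were 0.40 and 0.12. Without midlife sedentary mice 5915 and 6859, and likewise with the choroid plexus score as a covariate, 8 and 5 genes did. Of all genes, 6% and 5.86% did on the higher side in these fits, in that order. Leaving out 1 mouse at a time gave 7 to 10 and 5 to 9 genes, beside 5.51% to 9.37% of all genes on the higher side. The 5 basement membrane genes came without low runner 0533 or 1990, midlife sedentary mouse 7182, or young sedentary mouse 18627 or 18681.

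**Figure D3:**
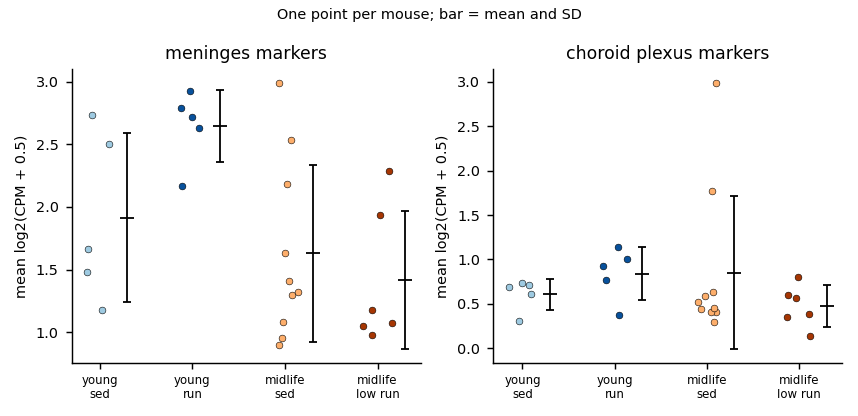
Mean log2(CPM + 0.5) of 12 meninges markers (left) and of the 9 choroid plexus markers that passed the filter (right) in each library, 1 point per mouse, with the mean and SD of each group. Young runners lie between 2.16 and 2.92 on the meninges axis, and 2 midlife sedentary mice stand apart at 1.77 and 2.99 on the choroid plexus axis.

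Angiogenesis genes gave a mixed picture. Of 25 genes of VEGF, Notch and angiopoietin signalling, 6 had an unadjusted p under 0.05 on the higher side, against 7.36% of all genes, and 1 on the lower, against 7.31%, with a median of 0.18. Among ligands, Angpt1, which stabilises vessels, had a difference of 0.83 and Jag1 0.49. Among receptors, Notch1 had 0.35 and Tie1 0.26. Mmp14, a membrane-bound matrix protease, had 9.58, 9.98, 11.6, 10.6 and 11.3 CPM in young runners and 6.36, 7.32, 5.76, 5.45 and 5.52 CPM in young sedentary mice, apart from each other. Low runners, at 6.44 to 9.88 CPM (median 7.76 CPM), leaned the same way over midlife sedentary mice, at 4.57 to 9.21 CPM (median 5.99 CPM), and the effects were 0.80 and 0.28 with a difference of 0.53. Col8a1, a collagen of vessel walls, had 0.67, and Hey1, a Notch target, -0.18. The growth factor Vegfa had 0.14 ± 0.11 (SE), its receptors Kdr and Flt1 0.18 ± 0.14 and 0.18 ± 0.17, and the tip cell ligand Dll4 0.54 ± 0.33. Kdr was on the positive side at both ages, by 0.50 and 0.32, and Hif3a, a hypoxia factor, on the negative side at both, by -0.56 and -0.66. With the meninges score as a covariate, 0 of the 25 had an unadjusted p under 0.05 by edgeR, beside 3.96% of all genes on the higher side and 4.46% on the lower. With the choroid plexus score 2 on the higher side did, beside 5.86% of all genes. Without low runner 1990, young runner 18526, 18527 or 18528, or young sedentary mouse 18626 or 18681 the 6 became 3. The share of all genes on the higher side was 5.51% to 6.86% in these fits.

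**Figure D4:**
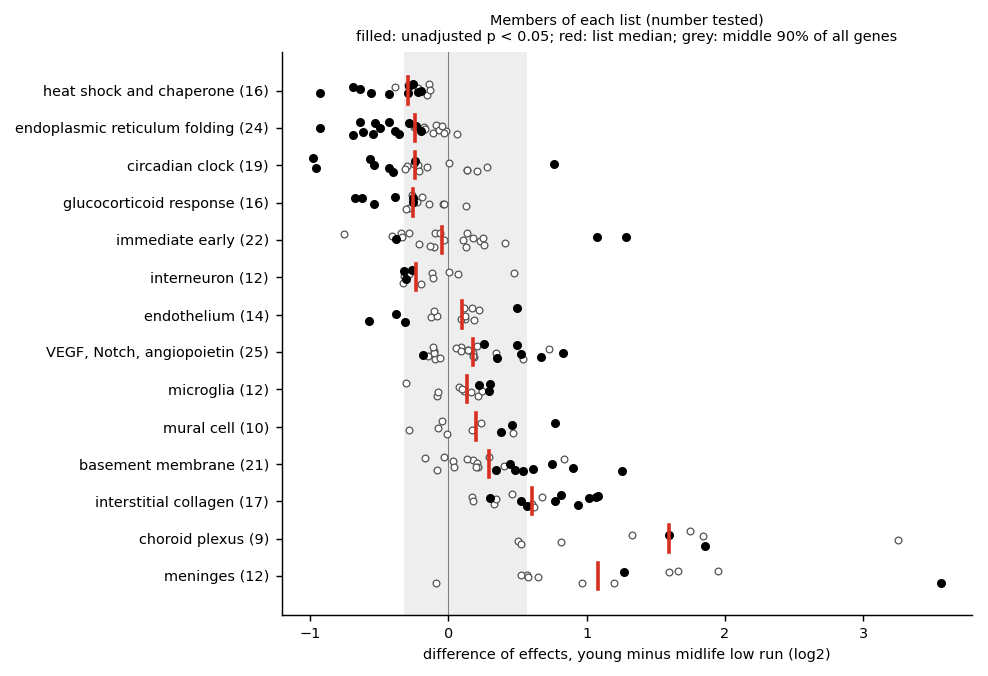
Difference of effects (log2, horizontal axis) of each tested member of 14 gene lists, filled where the unadjusted p was under 0.05, with the list median as a red bar and the range from -0.32 to 0.56 in grey, outside which 5% of all tested genes lie on each side. Heat shock genes lie to the left of 0 (16 of 16), and interstitial collagens to the right (17 of 17).

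In the cell type lists, counts at an unadjusted p under 0.05 are set against 7.36% of all genes on the higher side and 7.31% on the lower. The list of 18 excitatory neuron and cortical layer genes had 1 on each side, 7 positive and 11 negative differences, and a median of -0.04. In endothelium, with 3 of 14 lower and 1 higher, the glucose transporter Slc2a1 (-0.38), the lipid transporter Mfsd2a (-0.57) and the adhesion molecule Esam (-0.31) had an unadjusted p under 0.05 on the lower side and Vwf (0.50) on the higher, while Cldn5 was positive at both ages, by 0.53 and 0.40. Among 12 interneuron genes 3 were on the lower side at that p. Gad1, which makes GABA, had -0.26, Lamp5 -0.32 and Vip -0.31, and Gad2, Sst and Pvalb had 0.01, 0.07 and -0.32 with SEs of 0.15, 0.20 and 0.30. Of 12 GABA-A subunit genes, 5 were positive and 7 negative, with 1 at that p on each side and a median of -0.02. Among them Gabra5 had -0.45, made of -0.41 in young and 0.04 in low runners. On the higher side were 3 of 12 microglia genes, Cx3cr1 (0.30), Itgam (0.29) and Csf1r (0.22), 3 of 10 mural cell genes, Abcc9, Anpep and Pdgfrb, 2 of 8 oligodendrocyte precursor genes, Pdgfra and Cspg4, and 1 of 11 astrocyte genes, Sox9 (0.46). Of 13 oligodendrocyte genes 0 did by edgeR, and 12 were negative.

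Immediate early genes, which report recent neuronal activity, showed no common direction. Of 22 genes, 10 were positive and 12 negative, with Npas4 (1.08) and Btg2 (1.28) at an unadjusted p under 0.05 on the higher side and Dusp6 (-0.37) on the lower, shares of members near the 7.36% and 7.31% of all genes. Npas4 had 34.6, 53.4, 71.5, 50.1 and 82.1 CPM in young runners and 63.4, 51.5, 29, 36.6 and 32.9 CPM in young sedentary mice, with overlap, and the effects were 0.45 and -0.62. Fos and Arc had differences of -0.03 ± 0.30 and -0.10 ± 0.38 (SE). Of 10 neurotrophic genes tested, Igf2 (1.27), which is also a meninges marker, was on the higher side and Fndc5 (-0.24) on the lower at an unadjusted p under 0.05, 1 of 10 on each side, and Bdnf had -0.28 ± 0.21 (SE).

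**Figure D5:**
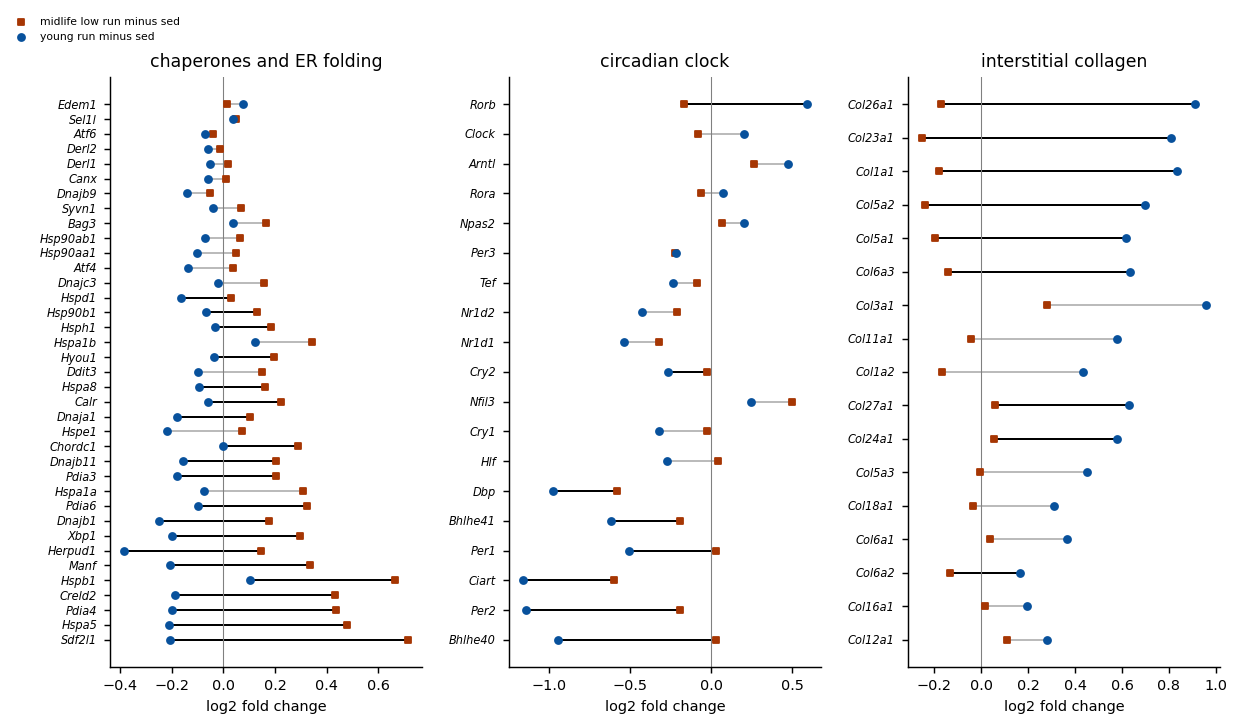
Log2 fold change of young runners (circles) and midlife low runners (squares) over their sedentary groups for chaperones, clock genes and interstitial collagens, joined by a line that is black where the unadjusted p of the difference was under 0.05. Chaperones spread with the squares to the right of the circles (36 of 37), collagens with the circles to the right (17 of 17), and clock genes often have both on the same side of 0 (13 of 19). The chaperones include the endoplasmic reticulum list, which was drawn up after the values were seen.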

How the data were processed

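Cortex RNA was isolated from hemisected brains of PBS-perfused mice and sequenced as paired reads from unstranded poly(A) libraries. The authors trimmed reads with NGSQCToolkit and quantified genes with RSEM 1.2.12 and Bowtie2 2.2.0 against mm10, and the deposited tables hold whole-number counts per gene and library, not normalized. Columns with the authors' own comparisons (fold changes and p-values) were not used, nor were 47 library columns that belong to no sample here. Young and midlife tables were joined by gene identifier.

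Counts were analysed with edgeR 4.0.16 in R 4.3.3: genes above 1 CPM in at least 2 of the 26 libraries, TMM scaling, 1 mean per group, the quasi-likelihood F-test in its earlier (legacy) form, and Benjamini-Hochberg adjustment over 15231 genes. CPM in the text are on TMM-scaled library sizes. SEs were derived from the fitted change and its F statistic, and intervals are 95%. The replicates are separate mice, and no 2 libraries of a group differed by less than counting noise (smallest chi-square per degree of freedom 5.19 over 80 pairs). The step was tested on simulated data.

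The named genes were those past an FDR of 0.05, then those with the smallest p up to 20, then genes and lists chosen for the tissue. The comparison, its members and the lists were chosen with earlier results of these data known, and lists are described by counts and medians without a test. The list of endoplasmic reticulum genes, the ERSE motifs, the meninges and transcript length scores as covariates and the exclusion of mice 5915 and 6859 were added after the data were seen. Sequences are from RefSeq (GRCm38.p6), with entries for 17 of the 20 genes with the smallest p, and gene positions are from GENCODE M21 (GRCm38). DESeq2 1.42.0 and limma 3.58.1 served as alternatives.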

Additional observations from a re-analysis of the deposited data

Results flagged for a closer look

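Prdm16 was the 1 gene past the FDR threshold for the difference of effects between young runners and midlife low runners, at 0.81 on the log2 scale. Single mice stood apart from the rest of their group, by Dixon's criterion at the 95% level, in 5 of 100 groups examined, and chance alone gives about 1 in 20. Low runner 0533 had 8.61 CPM of Prdm16 against a group median of 12.2 CPM, and without this mouse the difference of effects was 0.74 with an FDR of 0.00499. Low runner 3545 had 25.5 CPM of Fam53a against a median of 22.2 CPM. Young sedentary mouse 18605 had 73.1 CPM of Neurod6 against a median of 92.4 CPM. Midlife sedentary mouse 7383 had 97.6 CPM of Tsc22d3 against a median of 73.3 CPM. Young sedentary mouse 18681 had a choroid plexus score of 0.306 against a median of 0.685.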

How the results depend on the processing

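The 20 genes with the smallest p kept their direction in all 840 combinations of gene and setting. They were picked by this contrast, and the settings refit the same libraries or most of them, so that this is a description and no independent check. Genes past the FDR threshold numbered 1 (1 higher, 0 lower) as reported. They numbered 205 (78 and 127) with DESeq2, 58 (24 and 34) with limma voom and group weights, 480 (277 and 203) with each age fitted alone, 263 (84 and 179) with the transcript length score as a covariate, 2 (Prdm16 and, 1 lower, Luzp1) with the meninges score, 1 with the midlife libraries of lane 1 alone (Gm3005) and 0 with those of lane 5 alone, where edgeR gave 1728 genes at an unadjusted p under 0.05. The other 9 alternatives called 1 gene, Prdm16.

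Without 1 mouse, the count ranged from 0 to 26, with 0 to 13 higher and 0 to 13 lower. By edgeR it was 0 without young runner 18528 (1940 genes at an unadjusted p under 0.05) or young sedentary mouse 18681 (1842), 26 and 24 without low runners 5581 and 3545, 3 without low runner 0304 and 2 without 1990, 5 without midlife sedentary mouse 6967 and 2 without 7383, 3 without young runner 18527 and 5 without young sedentary mouse 18605. In counts of 2 to 5, the genes beside Prdm16 were among the 20, except Prelp without low runner 1990.

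Genes at an unadjusted p under 0.05 numbered 2235 as reported and 1640 to 2916 without 1 mouse (839 to 1425 higher, 761 to 1548 lower). They numbered 1283 (603 and 680) with the meninges score, 1774 on the lower side with the transcript length score, 730 on the lower side with all 32 cortex libraries and 1690 on the higher side with no filter, where 26429 genes were tested. The cause of these changes was not tested. No paired analysis was possible because the groups compared share no mouse.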

Other observations

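Other lists held single differences, beside a median difference of -0.0015 over all tested genes. Counts at an unadjusted p under 0.05 on the higher side are set against 7.36% of all genes. Of 9 thalamus-enriched genes, Zic1 (1.08) and Prkcd (0.39) were at that p. Among glutamate receptor subunits 13 of 15 had a positive difference, with Grin2c (0.21) at that p, 1 of 15 and near the share of all genes. Among 15 antigen presentation and interferon genes, 12 had a positive difference, and Tap1 (0.61) and H2-Q7 (1.33) had an unadjusted p under 0.05. H2-Q7 belongs to a multigene family whose members share reads, and its value is uncertain. The haemoglobin genes and Alas2, markers of red blood cells left after perfusion, had differences between -0.29 and -0.07 with SEs of 0.65 to 0.68.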
